A study of Homo sapiens with 42 samples.

Results

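The genes examined here encode the cleavage stimulation factor (CSTF1, CSTF2, CSTF2T and CSTF3), cleavage factor I (NUDT21, CPSF6 and CPSF7), cleavage factor II (PCF11 and CLP1) and RBBP6. They were chosen by name, and the Ensembl identifiers of these 10 symbols were looked up among the 58243 gene IDs of each count table, where all 10 were found. Their RNA was measured in K562, a line grown from a patient with chronic myeloid leukaemia in blast crisis, which carries the BCR-ABL1 fusion kinase. Poly(A) mRNA was sequenced in short reads for 9 groups, and rRNA-depleted nuclear RNA for 5, each with 3 biological replicates, which gives 42 libraries. The untreated cells are called CTRL. Imatinib (IM), an inhibitor of the BCR-ABL1 kinase, was given at 1 μM for 1, 6 or 18 h, JTE-607 (JTE), an inhibitor of the cleavage endonuclease CPSF3, at 5 μM for 1, 6 or 18 h, and KCl, a hyperosmotic stress, at 110 mM for 1 or 3 h. Nuclear RNA was sequenced for CTRL, IM 1h, IM 18h, JTE 1h and KCl 1h. All groups are 1 cell line with no donor as a replicate, so the spread between replicates is that of separate cultures of the same cells.

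Nearly all human mRNAs end where the nascent transcript is cut and a poly(A) tail is added. The cut is made by the CPSF complex, which reads the AAUAAA signal, and the complexes studied here help it to choose and use the site. The cleavage stimulation factor binds U- and GU-rich sequence past the cut: CSTF2 and its autosomal paralogue CSTF2T carry the RNA-binding domain, CSTF3 is the scaffold and CSTF1 the third partner. Cleavage factor I is built on NUDT21, which binds UGUA upstream of the cut, together with CPSF6 or CPSF7. Cleavage factor II pairs PCF11, which also binds the tail of RNA polymerase II and promotes the end of transcription, with the RNA kinase CLP1. RBBP6 is a RING-domain protein that the machinery needs before the endonuclease will cut.

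The libraries held 16439848 to 62953314 counted read pairs for mRNA and 16175394 to 25103205 for nuclear RNA. The top of the mRNA range was set by KCl 1h replicates 2 and 3, and the other mRNA libraries reached at most 22505595. Each of the 10 genes passed the filter on low counts in both fractions, and the lowest count of any member in any mRNA library was 177 read pairs, for CLP1 with IM 18h. The fetal and embryonic globins, GATA1 and TFRC, taken as markers of K562 cells, had a summed level of 3832 to 5174 CPM in CTRL mRNA. Of 4 lymphoid genes, MS4A1 and PAX5 were listed at 0 in all CTRL mRNA libraries, CD3E reached 1 read pair, and CD3D had a mean of 2.69 CPM. CPM stands for the counts of a gene scaled to the effective size of its library, on the usual per-megaread scale. In such bulk measurements, a change in the share of cells that hold an RNA and a change in the RNA per cell cannot be told apart.

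In untreated cells NUDT21 had the highest mRNA level per length of the 10 and CLP1 the lowest. Per kb of exon, NUDT21 was at 45.3 ± 2.49 CPM (SD, n = 3) and CLP1 at 8.29 ± 0.825, a 5.47-fold span. CPSF7 and CPSF6, the alternative partners of NUDT21, followed at 30.2 ± 5.06 and 29.9 ± 1.86 CPM per kb, and their libraries overlapped. CSTF2 stood at 25.5 ± 0.198 and CSTF2T at 17.1 ± 1.28 CPM per kb, with no overlap between them. From CSTF2T downward each gene overlapped the next, in the order CSTF2T, RBBP6 (14.04), CSTF1 (13.1), CSTF3 (11.9), PCF11 (10.3) and CLP1. Neighbours in that part of the order are thus not resolved beyond the spread. In nuclear RNA the ends of the order were the same, NUDT21 at 32.7 ± 4.63 and CLP1 at 7.94 ± 0.327 CPM per kb, and NUDT21 overlapped CPSF7 at 31.3 ± 1.40.

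**Figure D1:**
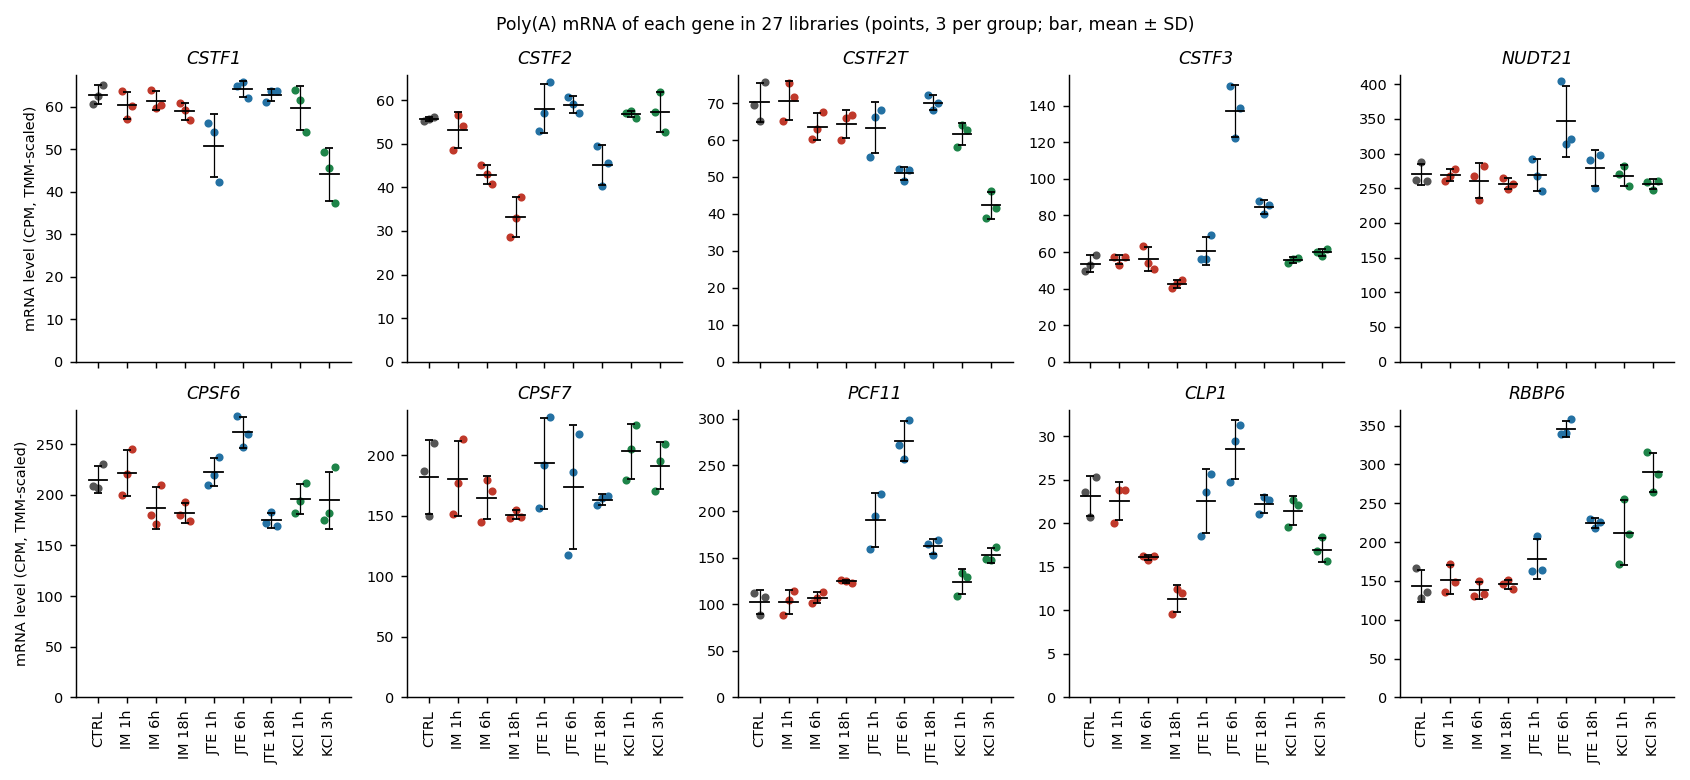
mRNA level of each gene in CPM scaled by effective library size (vertical axis) in the 9 groups (horizontal axis); points are the 3 libraries, the bar and whiskers their mean ± SD. PCF11, CSTF3 and RBBP6 peak at JTE 6h, CSTF2 and CLP1 are lowest at IM 18h, and RBBP6 is also high at KCl 3h.

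JTE-607 raised PCF11 of cleavage factor II, CSTF3 of the cleavage stimulation factor, and RBBP6. At 6 and 18 h the partners of PCF11 and CSTF3 within the same complexes moved less. PCF11 was at 112, 88.1 and 108 CPM in the CTRL libraries, at 160, 195 and 218 with JTE 1h, at 272, 257 and 299 with JTE 6h, and at 165, 153 and 169 with JTE 18h. Every treated library was above every untreated one, and JTE 6h was above both other times. The log2 fold change against CTRL was 0.90 ± 0.11 (SE) at 1 h (1.86-fold, adjusted p = 7.2e-05), 1.43 ± 0.12 at 6 h (2.69-fold, adjusted p = 7.2e-09) and 0.66 ± 0.11 at 18 h (1.58-fold, adjusted p = 0.00052), in edgeR's quasi-likelihood test, adjusted by the Benjamini-Hochberg method over all 18095 genes tested. A gene is named as called where this adjusted p was under 0.05 and the log2 fold change was beyond 0.6 in size, and as risen or fallen where the adjusted p alone was under 0.05.

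PCF11 was the only one of the 10 called with JTE 1h, where 0.851% of all genes tested were called in either direction and 0.387% were called higher. Its response ranked 10 of 18095 by p-value at that time. When CTRL and JTE 1h were fitted without the other groups, the fold change was about as large, 0.90, but the adjusted p was 0.13. RBBP6 showed 0.31 ± 0.13 at 1 h (adjusted p = 0.45) and CSTF3 0.17 ± 0.10 (adjusted p = 0.91), and some of their libraries overlapped those of CTRL.

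CSTF3, the scaffold of its complex, was at 49.5, 53.1 and 58.4 CPM in CTRL and at 151, 122 and 139 with JTE 6h. It was still at 87.8, 80.5 and 85.8 CPM with JTE 18h, between the other 2 sets with no overlap. The changes against CTRL were 1.35 ± 0.10 at 6 h (2.56-fold, adjusted p = 3.0e-09) and 0.66 ± 0.10 at 18 h (1.58-fold, adjusted p = 0.00017). RBBP6 was at 166, 128 and 136 CPM in CTRL, at 339, 340 and 358 with JTE 6h and at 230, 218 and 225 with JTE 18h. Here too the 3 groups did not overlap, with changes of 1.27 ± 0.13 (2.41-fold, adjusted p = 1.5e-07) and 0.65 ± 0.13 (1.56-fold, adjusted p = 0.0018).

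These 3 were the only members called at 6 h and again at 18 h, all of them higher. Among all genes tested, 6.73% were called higher and 13.2% in either direction at 6 h, against 3.29% and 5.39% at 18 h. By p-value the 6 h responses of CSTF3, PCF11 and RBBP6 ranked 9, 17 and 68 of 18095. The median log2 fold change was 0.29 over the 10 members at 6 h and 0.03 over all genes, and the members' median at 18 h was -0.0016 beside -0.011. At any fold the same 3 had risen at 18 h, where 4.54% of all genes had. The calls at 18 h lay close to the threshold: without CTRL replicate 2, PCF11 fell to 0.56 and RBBP6 to 0.57 on the log2 scale, so that CSTF3 alone was called, and without CTRL replicate 3 RBBP6 was at 0.59.

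The other members answered JTE 6h less or not at all. NUDT21 rose from 262, 287 and 261 CPM to 405, 314 and 321, a log2 fold change of 0.36 ± 0.10 (adjusted p = 0.0092) that replicate 1 led. CSTF2T fell from 69.6, 65.2 and 75.7 to 52.2, 49.0 and 51.9 CPM, by 0.46 on the log2 scale (adjusted p = 0.00096), and had returned to 70.1 ± 1.98 CPM at 18 h. At an adjusted p under 0.05 and any fold, 4 members had thus risen and 1 had fallen at 6 h, where 8.90% of all genes had risen and 9.16% had fallen. CPSF6 was at 278, 247 and 260 CPM against 208, 206 and 230 in CTRL, which is 0.28 ± 0.10 (adjusted p = 0.055), and CLP1 was at 0.30 ± 0.13 (adjusted p = 0.11). CSTF1 (0.03), CSTF2 (0.08) and CPSF7 (-0.07) had adjusted p of 0.67 or more. The CPSF7 libraries with JTE 6h spread from 118 to 218 CPM, with replicate 1 the lowest, so its mean is the least precise of the group.

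Between 6 and 18 h of JTE-607 the same 3 genes came down. The change from JTE 6h to JTE 18h was -0.76 ± 0.11 for PCF11 (adjusted p = 4.5e-05), -0.70 ± 0.10 for CSTF3 (adjusted p = 3.1e-05) and -0.62 ± 0.13 for RBBP6 (adjusted p = 0.001). They were the members called, beside 5.68% of all genes called lower and 13.4% called in either direction. RBBP6 was near the threshold and dropped below it without JTE 6h replicate 3 (-0.598), without JTE 18h replicate 2 (-0.59), with the 2 groups fitted alone (-0.59) and with no filter on low counts (-0.58). At any fold 7 members fell and CSTF2T rose, where 11% of all genes fell and 10.8% rose. CPSF6 fell by 0.58 (adjusted p = 0.00025), and it passed the threshold without JTE 6h replicate 2 (-0.62, adjusted p = 0.00044) and without JTE 18h replicate 2 (-0.604, adjusted p = 0.00087). CSTF2 fell by 0.39 (adjusted p = 0.0088). In CPSF6 and CSTF2 all JTE 6h libraries were above CTRL and all JTE 18h libraries below it.

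**Figure D2:**
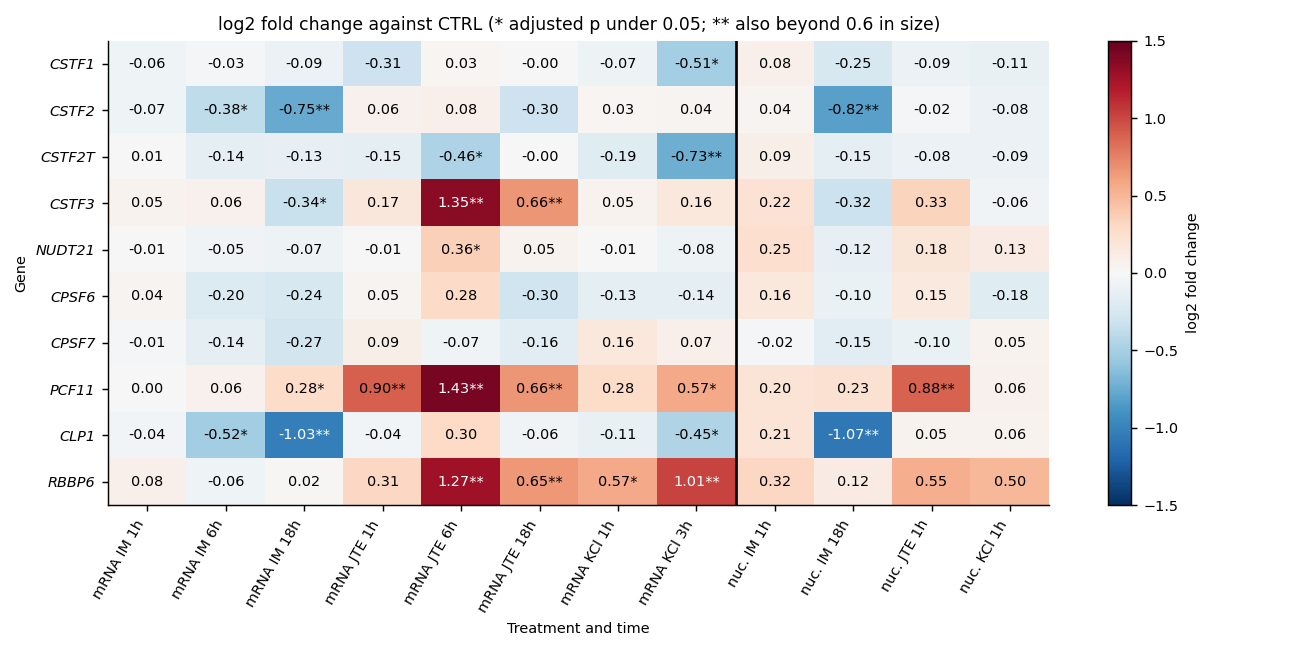
Log2 fold change of each gene against CTRL, by colour and number, for the 8 mRNA groups (left of the line) and the 4 nuclear groups (right of it); 1 asterisk marks an adjusted p under 0.05 and 2 mark a value also beyond 0.6 in size. The largest values are those of PCF11, CSTF3 and RBBP6 with mRNA JTE 6h (1.43, 1.35 and 1.27), and the lowest those of CLP1 with IM 18h (-1.03 in mRNA and -1.07 in nuclear RNA).

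The sequences before the annotated starts of these 3 genes were read, because the genes rose together. RefSeq windows of 250 bases upstream of the start (GRCh38.p14, written 5′ to 3′ on the gene's strand) held the 6-base word TGACGT, or its reverse complement ACGTCA, in all 3. Capitals mark the match, which runs to TGACGTCA in CSTF3 and RBBP6, where both words overlap. The window of the later of 2 CSTF1 starts is shown beside them, since it holds the same word and CSTF1 was at 0.03 with JTE 6h.
PCF11 promoter, chr11:83156881-83157130, plus strand: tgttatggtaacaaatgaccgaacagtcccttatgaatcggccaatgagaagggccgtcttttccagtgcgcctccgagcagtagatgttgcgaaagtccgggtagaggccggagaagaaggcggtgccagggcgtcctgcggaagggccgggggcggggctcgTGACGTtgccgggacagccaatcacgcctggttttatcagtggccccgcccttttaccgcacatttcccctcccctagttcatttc
CSTF3 promoter, chr11:33161481-33161730, minus strand: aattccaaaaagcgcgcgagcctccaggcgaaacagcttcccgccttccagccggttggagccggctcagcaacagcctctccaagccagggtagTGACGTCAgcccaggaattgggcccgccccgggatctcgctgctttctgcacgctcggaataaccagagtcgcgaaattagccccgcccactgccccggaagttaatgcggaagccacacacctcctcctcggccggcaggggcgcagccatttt
RBBP6 promoter, chr16:24539316-24539565, plus strand: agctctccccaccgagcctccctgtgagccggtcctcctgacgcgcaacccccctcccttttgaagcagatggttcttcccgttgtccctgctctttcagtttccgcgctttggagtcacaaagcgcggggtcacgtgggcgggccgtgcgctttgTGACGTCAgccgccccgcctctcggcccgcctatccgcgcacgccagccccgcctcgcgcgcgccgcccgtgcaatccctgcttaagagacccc
CSTF1 promoter, chr20:56392395-56392644, plus strand: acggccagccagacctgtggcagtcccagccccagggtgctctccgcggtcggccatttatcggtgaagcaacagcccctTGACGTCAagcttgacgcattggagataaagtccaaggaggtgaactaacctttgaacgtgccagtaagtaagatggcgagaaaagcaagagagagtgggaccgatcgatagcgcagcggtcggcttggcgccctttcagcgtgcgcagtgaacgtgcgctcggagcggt

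TGACGT or ACGTCA occurred in 7.09% of 34943 such windows, and among the members it was found in the windows of PCF11, CSTF3, RBBP6 and CSTF1. The other words searched on both strands were CGGAAG, present in 16.44% of windows and in those of PCF11 and CSTF3 but not RBBP6, and CCAAT, present in 32.04% and again in PCF11 and CSTF3 but not RBBP6. Among the other members, CGGAAG was found in CPSF6, CPSF7, CSTF2, CSTF2T and NUDT21, and CCAAT in CPSF6, CSTF1 and NUDT21. RefSeq and the gene models deposited with the counts place some starts differently. The RBBP6 and CSTF3 windows and the CSTF1 window shown lie within the deposited gene model, past its start. The PCF11 window spans the start of its deposited model. The words were chosen after the responses were known, and a match is a string in a window, not a site in use. The word ended 81 bases before the PCF11 start and, for TGACGT, 150 bases before that of CSTF3 and 89 before that of RBBP6.

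JTE-607 acts on the enzyme that cuts at the poly(A) site, so the annotated ends of PCF11, CSTF3, CSTF2 and CLP1 are shown as well. Each line gives the last 30 bases of the gene model deposited with the counts (hg38, gene strand, 5′ to 3′), with the AATAAA signal in capitals where it occurs.
PCF11 gene end, chr11:83187422-83187451, plus strand: gttgacctaagaacagctgagtatgggtgc
CSTF3 gene end, chr11:33077188-33077217, minus strand: ctccttcagccttggagcggcaggaaaagg
CSTF2 gene end, chrX:100840903-100840932, plus strand: taaactttgaacacaattttagtacactgc
CLP1 gene end, chr11:57661839-57661868, plus strand: tttAATAAAtatttttgccatatcatagaa

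CLP1 ended with AATAAA in this stretch, and PCF11, CSTF3 and CSTF2 held neither AATAAA nor ATTAAA there. Among other members, NUDT21, which also rose with JTE 6h, held AATAAA, as did CPSF6, CSTF1 and CSTF2T, and CPSF7 held neither. Over 12691 protein-coding genes tested, 50.29% held AATAAA, 12.57% ATTAAA and 37.14% neither, so both kinds of end are common. The gene models end at their most distal annotated transcript, and which end these cells used was not measured in the counts.

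Parts of PCF11, CSTF3 and CLP1 lie in the exons of other annotated genes, and the stated counting settings leave a read pair on the exons of 2 genes uncounted. PCF11 shared 1879 of 9951 exon bases with other genes, 1516 of them with the antisense gene PCF11-AS1, and CSTF3 shared 659 of 4517 with TCP11L1 and LINC00294 on the other strand. RBBP6 shared none. If strand was not used in counting, these stretches added nothing to either gene of a pair. The levels per length given for PCF11, CSTF3 and CLP1 are then too low. YPEL4 was at 0.17, 0.21 and 0.39 CPM in CTRL mRNA and at 3.26, 2.11 and 1.65 with IM 18h. In nuclear RNA it went from 0.22, 0.36 and 0.25 CPM in CTRL to 5.51, 3.54 and 4.80 with IM 18h. The part of YPEL4 in the fall of CLP1 was not tested. The nearest expressed gene upstream on the same strand, at a mean of 10 CPM or more, ended 198711 bases before PCF11, 317082 before RBBP6 and 535890 before CSTF3.

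Imatinib lowered CLP1 and CSTF2. CLP1, the kinase of cleavage factor II, was at 23.5, 20.7 and 25.3 CPM in CTRL, at 16.3, 15.8 and 16.3 with IM 6h and at 9.61, 12.4 and 11.99 with IM 18h. The 3 sets of libraries did not overlap. The log2 fold change was -0.52 ± 0.13 at 6 h (adjusted p = 0.0072) and -1.03 ± 0.13 at 18 h (2.04-fold lower, adjusted p = 1.7e-06). CSTF2, an RNA-binding subunit of the cleavage stimulation factor, was at 55.3, 55.8 and 56.1 CPM in CTRL, at 45.0, 43.0 and 40.8 with IM 6h and at 28.5, 33.1 and 37.7 with IM 18h. It too fell in steps with no overlap, by 0.38 on the log2 scale at 6 h (adjusted p = 0.014) and by 0.75 at 18 h (1.68-fold lower, adjusted p = 4.0e-06).

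CLP1 and CSTF2 were the members called with IM 18h, 2 of 10, in a comparison where 30.5% of all genes tested were called in either direction and 13.2% were called lower. The median over the 10 members was -0.18, beside 0.04 over all genes. No member was called with IM 6h, where 9.94% of all genes were, although CLP1 passed the fold threshold at -0.62 without CTRL replicate 2. At any fold the 2 genes had fallen at 6 h, where 7.85% of all genes had. With IM 1h no member was called and none had an unadjusted p under 0.05, and 0.0166% of all genes were called. DESeq2 also called 0 members with IM 1h, IM 6h and KCl 1h, and in edgeR 2 members had an unadjusted p under 0.05 in each of the latter pair. CSTF3 fell by 0.34 with IM 18h (adjusted p = 0.0092) and PCF11 rose by 0.28 ± 0.11 (adjusted p = 0.048), so CLP1 and PCF11, the 2 subunits of cleavage factor II, moved in opposite directions. At any fold 3 members had fallen and 1 had risen, where 21% of all genes had fallen and 22.8% had risen.

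From IM 6h to IM 18h, CSTF2 fell by a further 0.38 (adjusted p = 0.026), CLP1 by 0.50 (adjusted p = 0.021) and CSTF3 by 0.40 (adjusted p = 0.017). No member was called in that comparison, beside 4.41% of all genes, and these 3 falls compare with 4.69% of all genes that fell. The summed level of the K562 markers moved in the same groups. It went from 3832 to 5174 CPM in CTRL to 4659 to 7905 with IM 6h and 10240 to 14590 with IM 18h. Each globin had a higher mean in both groups. GATA1 was at 166 ± 25.0 CPM (SD) in CTRL, 142 ± 14.4 with IM 6h and 144 ± 11.1 with IM 18h. Mean TFRC was 1332, 1266 and 2202 CPM in the same order. The 4 lymphoid genes went from 2.36 to 3.35 CPM in CTRL to 0.158 to 0.326 with IM 18h, nearly all of it CD3D. The part of these marker changes in the changes of CLP1 and CSTF2 was not tested.

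KCl raised RBBP6 and lowered CSTF2T. RBBP6 was at 171, 255 and 210 CPM with KCl 1h and at 316, 265 and 288 with KCl 3h, against 166, 128 and 136 in CTRL. All treated libraries were above all untreated ones, although KCl 1h replicate 1 was close to the highest CTRL library. The log2 fold change was 0.57 ± 0.13 at 1 h (1.48-fold, adjusted p = 0.0052), short of the threshold, and 1.01 ± 0.13 at 3 h (2.02-fold, adjusted p = 3.6e-06). At 1 h the value passed the threshold, at 0.69 in each case, without CTRL replicate 1 or without KCl 1h replicate 1.

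CSTF2T was at 58.2, 64.0 and 62.6 CPM with KCl 1h and at 39.0, 46.3 and 41.6 with KCl 3h, against 69.6, 65.2 and 75.7 in CTRL. It fell by 0.73 on the log2 scale at 3 h (1.66-fold lower, adjusted p = 5.5e-06), and showed -0.19 ± 0.09 at 1 h (adjusted p = 0.36). CSTF2T has a single exon, and its transcript needs no splicing. The 2 genes were the members called with KCl 3h, 1 in each direction, where 4.55% of all genes were called higher and 7.33% lower. None was called with KCl 1h, where 5.45% of all genes were, and RBBP6 was the 1 member that rose at any fold, beside 3.08% of all genes.

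At any fold KCl 3h changed 5 members, where 6.82% of all genes had risen and 9.03% had fallen. PCF11 rose from 112, 88.1 and 108 to 149, 148 and 162 CPM, by 0.57 ± 0.11 (adjusted p = 0.00077). CSTF1 fell from 60.7, 62.6 and 65.2 to 49.5, 45.5 and 37.3 CPM, by 0.51 (adjusted p = 0.001), and CLP1 fell by 0.45 (adjusted p = 0.017). For all of these the KCl 3h and CTRL libraries did not overlap. Leaving out CTRL replicate 1 brought PCF11 to 0.64, and leaving out KCl 3h replicate 1 brought CSTF1 to -0.61, which added each to the calls. CSTF3, called with JTE 6h and JTE 18h, was at 60.1, 57.8 and 61.7 CPM with KCl 3h, which is 0.16 ± 0.10 (adjusted p = 0.35). Between KCl 1h and KCl 3h no member was called, beside 3.29% of all genes, and RBBP6 rose by 0.45 ± 0.13 (adjusted p = 0.036) while CSTF2T fell by 0.54 (adjusted p = 0.00073) and CSTF1 by 0.44 (adjusted p = 0.011), where 1.86% of all genes rose and 3.02% fell.

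The inhibitors were compared directly at 6 and 18 h, since both times were sampled for each. At 6 h CSTF3, PCF11, RBBP6 and CLP1 were called lower with imatinib than with JTE-607, by 1.29, 1.36, 1.33 and 0.82 on the log2 scale (adjusted p from 4.3e-09 to 3.0e-05). At 18 h CSTF3, CLP1 and RBBP6 were called lower, with differences of -0.997 ± 0.10, -0.97 ± 0.13 and -0.62 ± 0.13, and PCF11 differed by -0.38 ± 0.11 (adjusted p = 0.0085). Without IM 18h replicate 3, RBBP6 missed the threshold at -0.596. Of all genes tested, 23.8% were called at 6 h and 10.2% lower, and 30.3% were called at 18 h and 13.6% lower. At any fold 7 members were lower with imatinib at 6 h and CSTF2T was higher, where 16.7% of all genes were lower and 18.1% higher, and 5 members were lower at 18 h, where 21% of all genes were. The compounds are not related in structure, and each was given at a single dose, so the values compare these treatments and not potency.

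CSTF2 and CSTF2T, which can take the same place in the complex, shifted their balance in opposite ways under the treatments. The log2 ratio of CSTF2 to CSTF2T in CPM was -0.33, -0.22 and -0.43 in the CTRL mRNA libraries. It was 0.22, 0.27 and 0.14 with JTE 6h and 0.55, 0.42 and 0.34 with KCl 3h, above CTRL in every library, through the lower CSTF2T. With IM 18h it was -1.06, -0.99 and -0.82, below CTRL in every library, through the lower CSTF2. In JTE 18h libraries it was also below CTRL, at -0.54, -0.75 and -0.62, where CSTF2 was at 45.1 ± 4.51 CPM and CSTF2T at 70.1 ± 1.98. With 3 against 3 libraries no exact permutation test of a single ratio can give less than 0.10, so these shifts are given as values. The ratio of CPSF6 to CPSF7 overlapped CTRL with each inhibitor at each time, and at KCl 1h and KCl 3h its libraries lay below those of CTRL, with mean differences of -0.30 and -0.23. These differences rested in part on CTRL replicate 2, the highest of its group at 0.46, and without it they were -0.19 and -0.13. At KCl 3h the highest library was at 0.12 and the lowest CTRL library at 0.132, and in nuclear RNA the KCl 1h libraries overlapped those of CTRL.

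**Figure D3:**
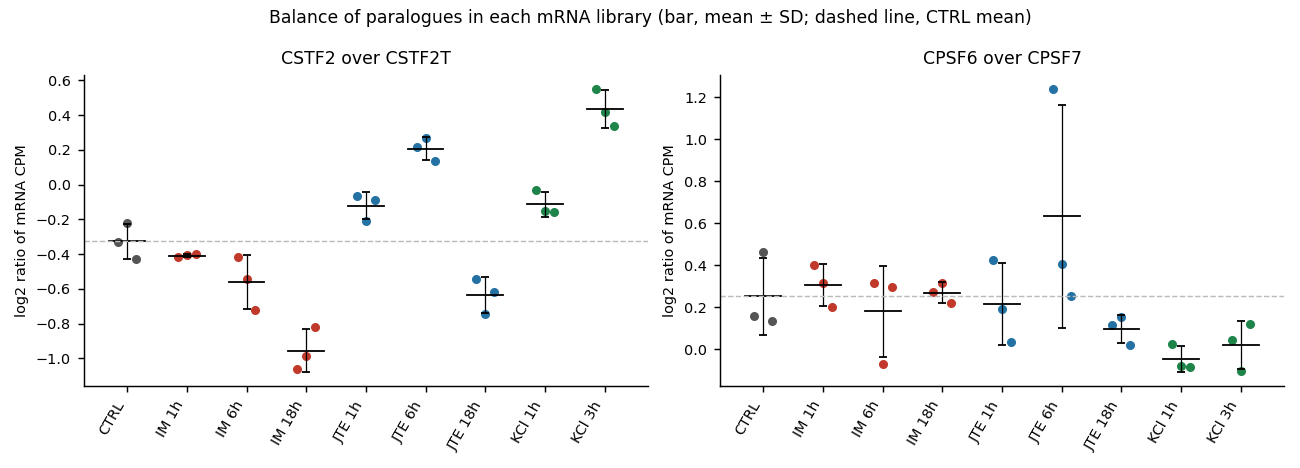
Log2 ratio of CPM between paralogues in each mRNA library (points) for the 9 groups, with mean ± SD and the CTRL mean as a dashed line. CSTF2 over CSTF2T runs from a mean of -0.96 with IM 18h to 0.44 with KCl 3h, and CPSF6 over CPSF7 stays within the CTRL range or overlaps it except with KCl.

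NUDT21, CPSF6 and CPSF7, which make up cleavage factor I, had no call in any of the 17 comparisons within a fraction when all libraries were fitted, although CPSF6 passed the threshold from JTE 6h to JTE 18h without either of 2 libraries, as given above. The group means of log2(CPM + 0.5) over the 9 mRNA groups spanned 0.44 for NUDT21, 0.58 for CPSF6 and 0.43 for CPSF7, against 1.68 for CSTF3, 1.42 for PCF11, 1.33 for RBBP6 and 1.29 for CLP1. CSTF1 spanned 0.54, CSTF2 0.82 and CSTF2T 0.73. For CPSF7 the SE of its fold changes was 0.17 in mRNA, so a change of small size would not have been detectable.

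In nuclear RNA the response of PCF11 to 1 h of JTE-607 was as large as in mRNA. PCF11 was at 127, 110 and 102 CPM in nuclear CTRL and at 226, 194 and 207 with JTE 1h, with no overlap, a log2 fold change of 0.88 ± 0.12 (1.84-fold, adjusted p = 3.9e-05). It was the only member called, beside 8.52% of 21929 genes called in either direction and 7% called higher. The difference between its nuclear and mRNA responses was 0.01 ± 0.18 (adjusted p = 1.0). RBBP6 was at 138, 92.1 and 84.2 CPM in CTRL and at 193, 134 and 132 with JTE 1h. These ranges overlap, because replicate 1 was the highest library in each group, and the fold change was 0.55 ± 0.28 (adjusted p = 0.29).

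Same-numbered nuclear libraries deviated together, and with the replicate number as a block more members passed the adjusted p at sizes under the threshold. RBBP6 was higher in JTE 1h than in its numbered CTRL library in 3 of 3 pairs, by 0.49, 0.54 and 0.65 on the log2 scale, and the blocked estimate was 0.56 ± 0.07 (adjusted p = 7.3e-07). CSTF3 was at 0.33 ± 0.08 (adjusted p = 0.0025 with the block, 0.14 without) and NUDT21 at 0.20 ± 0.07 (adjusted p = 0.049 with the block, 0.46 without). With JTE 1h the block thus gave 4 members that rose, where 12.4% of all genes did. RBBP6 also rose in the blocked fit with nuclear KCl 1h, by 0.49 ± 0.07 (adjusted p = 1.5e-06 against 0.25 without the block), and with nuclear IM 1h, by 0.33 ± 0.07 (adjusted p = 0.011 against 0.88). CPSF6 fell by 0.18 with nuclear KCl 1h in that fit (adjusted p = 0.044). Of all genes tested, 21.5% rose and 15.6% fell with KCl 1h and 1.96% rose with IM 1h in the blocked fits. No member was called by fold and adjusted p with KCl 1h or IM 1h in either fit, and without the block 23.8% and 0.0456% of all genes were. In both comparisons DESeq2 called 0 members, and 0 had an unadjusted p under 0.05 in edgeR without the block.

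**Figure D4:**
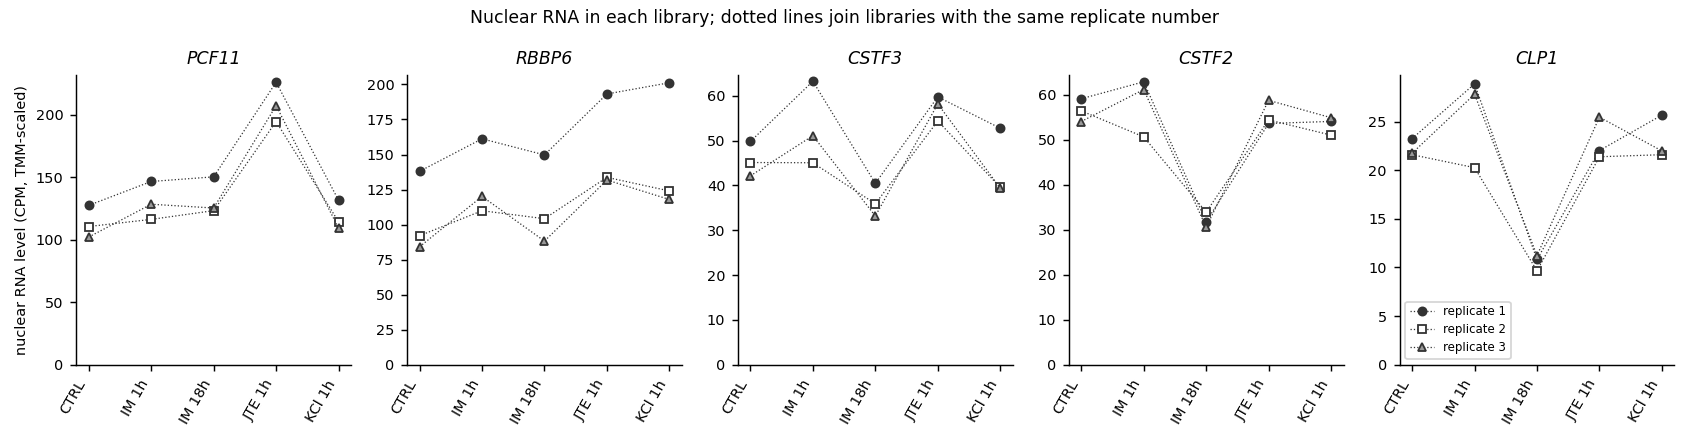
Nuclear RNA level in CPM of 5 genes (panels) in the 5 nuclear groups; symbols are replicates 1, 2 and 3 and dotted lines join libraries of the same number. Replicate 1 is the highest RBBP6 library in every group (138 CPM in CTRL), and the lines for RBBP6 run nearly parallel.

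The fall of CLP1 and CSTF2 with IM 18h was found in nuclear RNA as well. CLP1 was at 23.2, 21.6 and 21.7 CPM in nuclear CTRL and at 10.8, 9.65 and 11.2 with IM 18h, a change of -1.07 ± 0.14 (2.10-fold lower, adjusted p = 2.3e-06). CSTF2 went from 59.1, 56.4 and 54.1 to 31.8, 33.9 and 30.6 CPM, a change of -0.82 ± 0.10 (1.76-fold lower, adjusted p = 1.5e-06). Both genes had no overlap between groups and were the 2 members called, where 32.6% of all genes were called and 15.4% lower. In the blocked fit CSTF3 also fell, by 0.32 (adjusted p = 0.001 against 0.055 without the block), CSTF1 fell by 0.24 (adjusted p = 0.0054 against 0.055), and PCF11 rose by 0.23 ± 0.07 (adjusted p = 0.0048 against 0.11), where 28% of all genes fell and 27.8% rose. The K562 markers summed to 4485 to 5986 CPM in nuclear CTRL and to 10450 to 12700 with IM 18h, and their part in these changes was not tested.

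**Figure D5:**
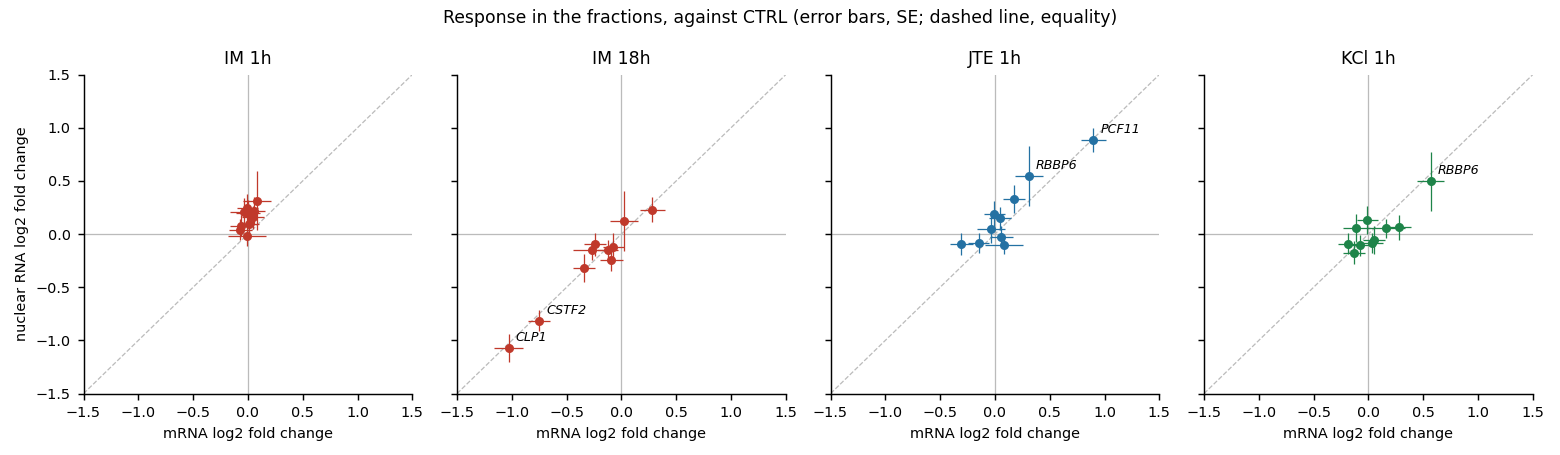
Log2 fold change against CTRL in nuclear RNA (vertical axis) and in mRNA (horizontal axis) for the 10 genes under the 4 treatments sequenced in both fractions; error bars are SE and the dashed line marks equal responses. PCF11 with JTE 1h (0.88 and 0.90) and CLP1 with IM 18h (-1.07 and -1.03) lie on the line.

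The nuclear response was tested against the mRNA response of each member, and none of the 40 differences was called, by edgeR or by DESeq2, or had an unadjusted p under 0.05 in edgeR. In these tests 0% of all genes were called for IM 1h, 0.0901% for IM 18h, 0.0605% for JTE 1h and 0.668% for KCl 1h, so few genes of any kind could be told apart between the fractions. With IM 18h the difference was 0.01 ± 0.19 for CLP1 and -0.01 ± 0.16 for CSTF2. The largest in size of any member was PCF11 with KCl 1h, at -0.32 ± 0.19 (adjusted p = 0.68). The smallest adjusted p for RBBP6, which was 0.92 with JTE 1h, came with an SE of 0.29. Differences of that size, and larger ones, could therefore be missed.

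The rest of the cleavage and polyadenylation machinery gives the setting for these values. Of 10 further genes (CPSF1, CPSF2, CPSF3, CPSF4, FIP1L1, WDR33, SYMPK, PAPOLA, PAPOLG and PABPN1), 1 was called with JTE 6h, CPSF4, which binds the poly(A) signal within CPSF and was lower (-0.75 ± 0.10, adjusted p = 1.2e-05). None of the 10 was called with JTE 18h, with IM 18h or with KCl 3h against CTRL, where the members had 3, 2 and 2 calls. Of all genes tested, 13.2% were called with JTE 6h, 5.39% with JTE 18h and 30.5% with IM 18h. With KCl 3h 4.55% were called higher and 7.33% lower. At an adjusted p under 0.05 and any fold, WDR33 and PAPOLA had risen and CPSF4 had fallen with JTE 6h, and CPSF1, CPSF2 and PABPN1, 3 of the 10, had fallen with JTE 18h. Of all genes tested, 8.9% had risen and 9.16% had fallen with JTE 6h, and 841 of 18095 had fallen with JTE 18h. FIP1L1 had fallen with IM 18h, where 21% of all genes had. With KCl 3h FIP1L1 had risen and PAPOLG had fallen, where 6.82% of all genes had risen and 9.03% had fallen. In nuclear RNA FIP1L1, CPSF4 and SYMPK, again 3 of the 10, had fallen with IM 18h, where 5057 of 21929 genes had. CPSF4 had also fallen with nuclear KCl 1h, where 2344 of 21929 genes had. The median log2 fold change of these 10 with JTE 6h was 0.11, beside 0.29 for the members. The other calls among them were PAPOLG, a poly(A) polymerase, lower from KCl 1h to KCl 3h (-0.83 ± 0.12, adjusted p = 0.00011), CPSF4 higher in IM 6h than in JTE 6h (0.63 ± 0.10, adjusted p = 5.7e-05) and CPSF1 higher in IM 18h than in JTE 18h (0.63 ± 0.09, adjusted p = 3.2e-06). Their summed level lay between 1133 and 1399 CPM in all mRNA libraries.

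Among the members, CSTF3 followed NUDT21 most closely over the 9 mRNA group means, with a Pearson r of 0.92, and PCF11 at 0.82. CSTF2 and CPSF7 were at 0.87, CSTF2 and CLP1 at 0.81, PCF11 and RBBP6 at 0.80, and CSTF2T and RBBP6 at -0.75. Of 8719 expressed genes, the patterns most like CSTF3 were those of REEP5 (0.98), ENY2 (0.97) and PLPBP (0.97), and those most like PCF11 were NCOA5 (0.96), ELP2 (0.96) and AFG1L (0.93). NUDT21 ranked 16 among the genes like CSTF3 and RBBP6 ranked 70 among those like PCF11. These values rest on 9 points that share the same libraries, and JTE 6h, the highest group for both genes, weighs heavily in each.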

How the data were processed

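The authors trimmed the paired reads with fastp, removing duplicates, aligned them to hg38 with STAR, keeping unique alignments and a capped intron length, and counted read pairs over exons per gene with featureCounts; the counts were deposited as raw counts per gene, 1 table per fraction, with 58243 gene IDs each. The cap is shorter than 2 annotated gaps between CSTF3 exons and 1 between CPSF6 exons. The annotation release is not given in the sources used here, and the counting options that the study lists include no strand setting. Symbols were taken from a gene name table, and exon positions and lengths were those deposited with the counts. GENCODE, where 57532 of the IDs were found, served for gene types and a check of positions.

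From the counts, each fraction was fitted with edgeR 4.0.16 (R 4.3.3): filterByExpr, TMM scaling and the robust quasi-likelihood test over all libraries of the fraction, with Benjamini-Hochberg adjustment over 18095 mRNA or 21929 nuclear genes. Genes were called at an adjusted p under 0.05 if the log2 fold change was also beyond 0.6 in size. The nuclear and mRNA responses were compared by an interaction over 12 libraries. The scripts were tested on simulated counts. The members, the other gene lists, the named genes (all members, other 3′ processing genes that were called, and the 3 genes most like each of the 2 members with the widest range) and the tests were chosen with earlier results of these data known. DESeq2 1.42.0, other scalings and filters, and left-out libraries were tried as alternatives. A marker gene of the K562 list and a gene end are not reported here. No 2 replicates agreed within sampling noise.

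The replicate number was taken as a pairing where the deviations of same-numbered libraries from their group means correlated above 0.1 in all 3 pairs. This held for the 4 nuclear comparisons (0.24 to 0.89) and, in mRNA, for JTE 18h against JTE 6h, KCl 3h against KCl 1h and IM 6h against JTE 6h. It did not hold for any of the 8 mRNA comparisons with CTRL (-0.37 to 0.88). Replicates 1 and 2 of mRNA CTRL are named here as in the labels and column names, and a supplementary table of the study gives their read totals the other way round. With these 2 numbers exchanged, an alternative chosen after seeing the data, the correlations were 0.055 to 0.88 and held in 7 of the 8 comparisons. The fold changes and tests printed for mRNA without a block do not use the number.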

Additional observations from a re-analysis of the deposited data

Results flagged for a closer look

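The members that JTE-607 raised were looked at again because their response differed between times by a test of the difference itself. From JTE 6h to JTE 18h the log2 change was -0.70 for CSTF3, -0.76 for PCF11 and -0.62 for RBBP6, all called in edgeR's quasi-likelihood test.

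CSTF2 and CPSF6 were flagged because their 3 libraries at JTE 6h were all above CTRL and those at JTE 18h all below it. How many of all genes show this pattern is not given here. The response at 6 h exceeded that at 18 h by 0.39 for CSTF2 and by 0.58 for CPSF6 on the log2 scale. The direct test between the 2 times gave an adjusted p of 0.0088 and 0.00025, short of the fold threshold in both. At an adjusted p under 0.05 and any fold, 11% of all genes fell between these times. Neither gene differed from CTRL at either time at an adjusted p under 0.05 (0.67 and 0.063 for CSTF2, 0.055 and 0.065 for CPSF6), without a replicate block.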

How the results depend on the processing

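Of 24 calls among 210 pairs of member and comparison, 19 were kept in every setting and with every left-out library tried, and no called value changed sign. With no fold threshold the number of members past the adjusted p became 2 for IM 6h, 4 for IM 18h, 5 for JTE 6h, 1 for KCl 1h and 5 for KCl 3h against CTRL in mRNA, 3 for IM 18h against IM 6h, 8 for JTE 18h against JTE 6h, 3 for KCl 3h against KCl 1h, 8 for IM 6h against JTE 6h and 5 for IM 18h against JTE 18h. With only the 2 groups fitted, 0 members were called for mRNA JTE 1h. Leaving out 1 library gave 0 to 1 member called for IM 6h, KCl 1h and KCl 3h against KCl 1h, and 1 to 3 for JTE 18h against CTRL. In KCl 3h against KCl 1h it was RBBP6 without KCl 1h replicate 2 (0.603) and CSTF2T without KCl 3h replicate 2 (-0.61). DESeq2, RLE scaling, thinned libraries and the removal of genes with over 1% of counts changed no member call.

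With the replicate number as a block the count of members called was the same in every comparison, 1 for nuclear JTE 1h and 2 for nuclear IM 18h among them. In the mRNA comparisons with CTRL, which the numbers do not pair, the block added CPSF6 to the members past the adjusted p at IM 18h, JTE 6h and JTE 18h and CSTF2 at JTE 18h. With the numbers of CTRL replicates 1 and 2 exchanged, an alternative added after seeing the data, the blocked fit gave the same number of members called in all 8 of these comparisons. At any fold it added CPSF6 and CPSF7 at IM 18h (adjusted p 0.019 and 0.045), CPSF6 and CLP1 at JTE 6h (0.011 and 0.024), CPSF6 and CSTF2 at JTE 18h (0.013 and 0.031) and PCF11 at KCl 1h (0.041), which then gave 6, 7, 5 and 2 members past the adjusted p. More genes of any kind also passed an unadjusted p under 0.05 than without a block. Of 18095 genes, these went from 9192 to 10499 at IM 18h and from 5336 to 6742 at JTE 6h. At JTE 18h they went from 4101 to 5562 and at KCl 1h from 2711 to 3551.

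Of 179 pairs never called, 63 had another sign in some setting, the largest of them at 0.17 in size. Counts per gene do not show which transcript or poly(A) site was used. With 3 libraries per group and an SE near 0.10, changes well under the fold threshold can be missed, more so for CPSF7 in mRNA and RBBP6 in nuclear RNA. Levels are relative to all counted RNA, so a change in total RNA per cell is not seen.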
